A study of Mus musculus with 18 samples.

Results

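Wnt proteins are secreted signals that bind Frizzled receptors on the cell surface. Their action is limited outside the cell by secreted antagonists of the Sfrp and Dkk families, and it is raised by the R-spondins (Rspo). Sfrp proteins bind Wnt through a domain like that of Frizzled, Dkk1 binds the Lrp co-receptors, and R-spondins act through Lgr receptors to keep Frizzled at the membrane. Many of these genes are developmental genes that stay silent in differentiated blood cells, and such genes are classic targets of Polycomb, whose enzyme complex places trimethylation on lysine 27 of histone H3 (H3K27me3). Acetylation of the same lysine (H3K27ac) marks active promoters and enhancers, and a single histone tail cannot carry both.

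The genes described here are the autosomal protein-coding genes of GENCODE vM21 (mm10) whose symbol begins with Wnt, Fzd, Sfrp, Dkk or Rspo followed by a digit. The rule found 41 genes of the 20807 autosomal protein-coding genes. They were 19 Wnt ligands, 10 Frizzled receptors, 4 Sfrp antagonists, 4 Dkk antagonists and 4 R-spondins.

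Both marks were measured by ChIP-seq in bone marrow-derived macrophages (BMDM), which were grown from mouse marrow for a week in medium with L929 supernatant, a source of macrophage colony-stimulating factor, and were not stimulated. The mice were male and of 3 genotypes: WT (labelled C57BL6), mdx (labelled Dmdmdx-4Cv, with a mutation in the dystrophin gene) and mdxTLR4-/- (labelled mTLR4, of a Bl6/Bl10 strain), which carry the mdx mutation and also lack TLR4. For H3K27me3 each genotype had 2 ChIP and 2 input libraries, and for H3K27ac there were 2 WT, 2 mdx and 1 mdxTLR4-/- ChIP libraries with 1 input. In the labels the age rises by a week from library to library. It runs from 6 to 11 weeks over the H3K27me3 input libraries, from 12 to 17 weeks over the H3K27me3 ChIP libraries and from 18 to 23 weeks over the H3K27ac series. An H3K27me3 ChIP library and the inputs of its genotype thus differ in labelled age. Genotype, labelled age and, for mdxTLR4-/-, strain cannot be told apart. Both labels are in doubt: so even a rise of age may be an error of the labels, and the study's methods place the WT mice and both single mutants on C57BL/6J and name no Bl10. Neither could be settled from the sources used here. Both mutations are carried by every cell of the mouse, so what the mutation does in the macrophage and what the dystrophic body did to the marrow cannot be told apart either.

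The authors merged the replicates of a genotype before they called peaks, so each mark and genotype has 1 list of peaks, each peak with its number of ChIP reads. Differences between genotypes are therefore given without a spread over mice and without p-values. The H3K27me3 peaks of a list held 7358418 to 10199918 reads, with the most in mdx and the fewest in mdxTLR4-/- BMDM, and the H3K27ac peaks held 168487 to 274020, with the most in WT. The total depth of the libraries is unknown. As a check of the cell type, the starts of 10 macrophage marker genes had an H3K27ac peak within 5 kb in 10, 9 and 10 cases in WT, mdx and mdxTLR4-/- BMDM. The exception in mdx was Csf1r, whose nearest peak lay 5.00 kb away and held 165 reads. Of 5 skeletal muscle and 5 fibroblast markers, 0 had one in any list, and of 5 T cell and 5 B cell markers 1 and 2 had one in WT, 0 and 1 in mdx, and 0 and 1 in mdxTLR4-/- BMDM.

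The starts of nearly all of these genes lay under H3K27me3 in resting BMDM of every genotype. The gene start was inside an H3K27me3 peak for 38 of 41 genes in the WT list, 36 in the mdx list and 37 in the mdxTLR4-/- list. Over all 20807 genes this share was 24.5% in the WT list, 24.7% in the mdx list and 23.6% in the mdxTLR4-/- list. The 19 Wnt ligands were covered at the start in all 3 lists, as were the 4 Sfrp antagonists and the 4 R-spondins. All the uncovered starts belonged to Frizzled receptors and to Dkk4.

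H3K27ac was close to absent. In WT and mdxTLR4-/- BMDM, 0 of 41 genes had an H3K27ac peak within 5 kb of the start, and in mdx BMDM 1 had, the receptor gene Fzd7. Over all genes this share was 32.9% in WT cells, 28.3% in mdx cells and 30.4% in mdxTLR4-/- cells. H3K27ac was also rare at other genes whose start lay under H3K27me3, at 3.79%, 2.26% and 2.37% in the same order, against 0 of 38, 0 of 36 and 0 of 37 covered genes here. A list holds only called peaks, the smallest of 5 reads, and weaker acetylation was not detectable at this depth. The nearest H3K27ac peak lay at a median distance of 63.8 kb from the starts of the 41 genes in the WT list, 70.5 kb in the mdx list and 70.3 kb in the mdxTLR4-/- list, against 24.5, 34.1 and 31.3 kb over all genes.

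**Figure D1:**
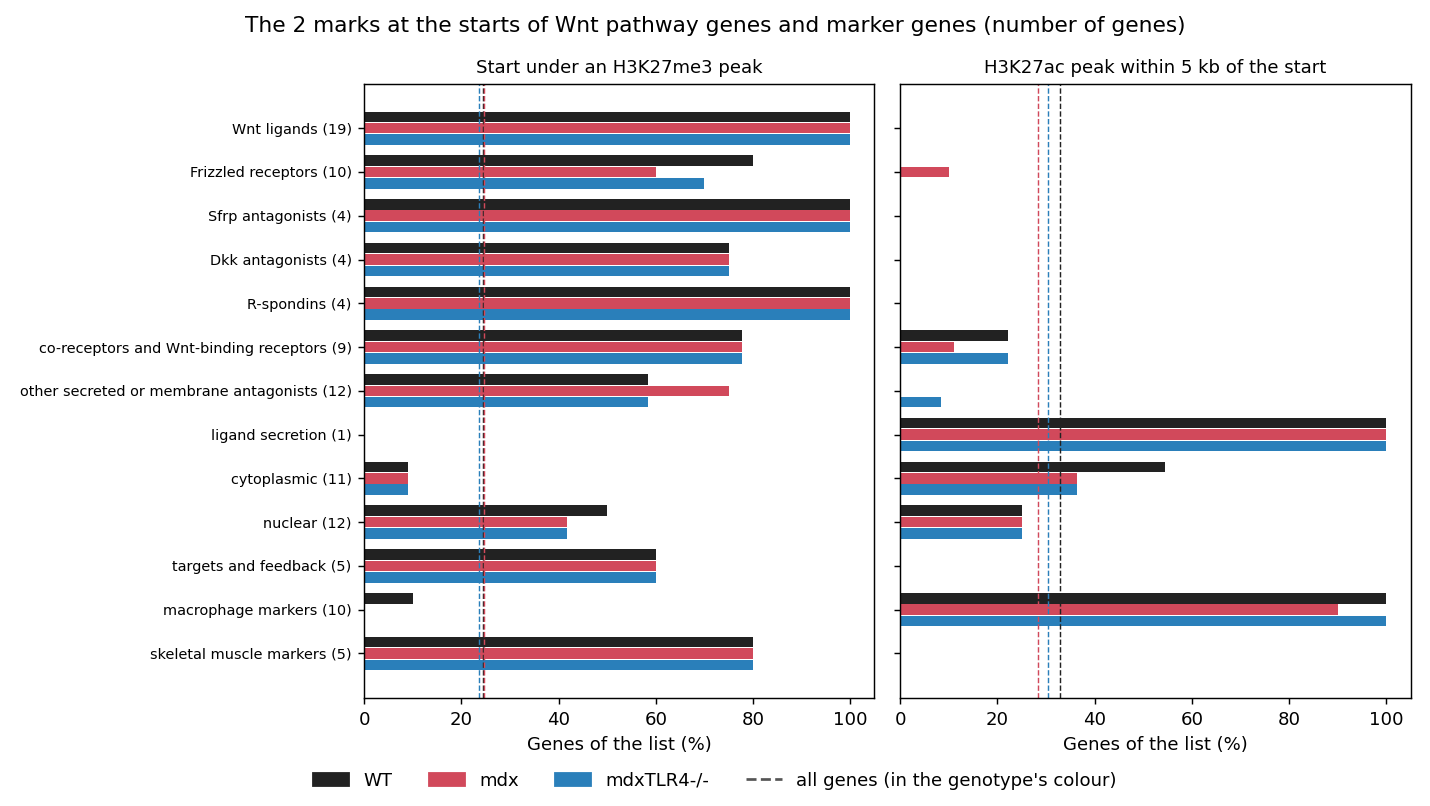
Share of genes (%) whose start lies under an H3K27me3 peak (left) or has an H3K27ac peak within 5 kb (right), for the 5 role groups of the 41 genes, for other lists of the Wnt pathway and for macrophage and skeletal muscle markers, with the number of genes in brackets. Bars stand for the 3 genotypes, from 1 merged peak list each, and dashed lines for all 20807 genes; the Wnt ligands, Sfrp antagonists and R-spondins reach 100% on the left, and among the 41 genes only the Frizzled group has a bar on the right, for Fzd7 in mdx BMDM.

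The promoters of 6 genes show the range of sequence under these marks. Each stretch is the 250 bases before the RefSeq start of transcription (GRCm38.p6, the mm10 assembly), 5′ to 3′ on the strand of the gene, with each CpG dinucleotide in capitals, since CpG-rich promoters are the usual seat of Polycomb. Fzd7 (chr1:59481897-59482146, plus strand) is shown as the gene with H3K27ac. Wnt16 (chr6:22287977-22288226, plus strand), Rspo4 (chr2:151842677-151842926, plus strand) and Wnt7a (chr6:91411354-91411603, minus strand) are shown as the genes with the largest changes of H3K27me3 coverage among those with a RefSeq entry. Fzd5 (chr1:64737751-64738000, minus strand) and Wnt1 (chr15:98789607-98789856, plus strand) were added after their values were seen, as a gene with no H3K27me3 and a gene under it throughout.

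Fzd7: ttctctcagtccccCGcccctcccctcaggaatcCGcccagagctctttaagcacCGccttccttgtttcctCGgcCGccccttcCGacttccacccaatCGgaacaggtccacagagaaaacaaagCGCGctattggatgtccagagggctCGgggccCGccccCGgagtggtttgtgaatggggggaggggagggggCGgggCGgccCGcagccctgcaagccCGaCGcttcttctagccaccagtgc
Wnt16: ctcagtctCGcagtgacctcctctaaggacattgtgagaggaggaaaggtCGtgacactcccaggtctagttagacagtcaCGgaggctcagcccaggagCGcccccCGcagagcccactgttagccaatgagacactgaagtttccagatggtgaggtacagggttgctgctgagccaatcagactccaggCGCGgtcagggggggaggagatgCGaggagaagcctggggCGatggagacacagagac
Rspo4: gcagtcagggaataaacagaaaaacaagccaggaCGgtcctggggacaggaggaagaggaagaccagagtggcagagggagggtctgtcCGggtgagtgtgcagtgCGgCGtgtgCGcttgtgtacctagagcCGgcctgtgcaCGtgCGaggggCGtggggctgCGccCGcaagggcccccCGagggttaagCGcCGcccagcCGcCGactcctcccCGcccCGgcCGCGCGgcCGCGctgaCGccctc
Wnt7a: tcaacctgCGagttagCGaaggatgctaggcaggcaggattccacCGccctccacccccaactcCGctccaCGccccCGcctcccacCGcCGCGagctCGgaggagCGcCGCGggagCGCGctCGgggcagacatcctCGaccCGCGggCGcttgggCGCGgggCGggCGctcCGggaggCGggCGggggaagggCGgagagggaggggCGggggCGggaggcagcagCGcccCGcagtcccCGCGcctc
Fzd5: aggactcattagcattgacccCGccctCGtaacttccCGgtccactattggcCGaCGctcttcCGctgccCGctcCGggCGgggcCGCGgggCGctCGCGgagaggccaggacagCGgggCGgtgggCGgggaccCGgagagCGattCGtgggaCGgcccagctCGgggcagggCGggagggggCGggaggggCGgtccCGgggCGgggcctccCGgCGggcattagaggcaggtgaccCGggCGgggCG
Wnt1: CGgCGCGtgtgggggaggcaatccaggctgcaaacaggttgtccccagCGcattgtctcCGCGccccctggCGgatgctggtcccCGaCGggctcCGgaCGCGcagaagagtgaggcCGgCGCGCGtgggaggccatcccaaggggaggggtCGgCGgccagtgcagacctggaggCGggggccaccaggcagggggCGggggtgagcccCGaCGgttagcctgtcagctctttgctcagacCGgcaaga

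The 4 promoters of Wnt16, Rspo4, Wnt7a and Wnt1 lay wholly under H3K27me3 peaks in all 3 lists, and those of Fzd7 and Fzd5 under none. The stretch of Fzd5 holds 32 CpG and that of Fzd7 17, while those of Wnt16, Rspo4, Wnt7a and Wnt1 hold 9, 24, 34 and 23. These 6 were chosen, and Dkk4, which also had no H3K27me3 in its window, had no promoter at hand. A link between CpG and the mark was not tested. RefSeq promoter windows of 300 bases (250 before to 50 after the start) were at hand for 27 of the 41 genes. They held a median of 29 CpG, from 6 at Wnt8b to 58 at Wnt9a, against 15 over the 15687 genes with a window and 12 over the 3727 of these whose start lay under H3K27me3 in WT BMDM. The median ratio of observed to expected CpG was 0.810, against 0.614 over all windows. The letters GGGCGG, the core of a GC box, were found on either strand in 20 of 27 windows (74.1%), against 48.8% of all windows, and TATAAA in 4 (14.8%), against 12.9%. The matches are descriptions of letters and not of bound factors.

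Coverage is used below for the share of a gene window, which reaches 5 kb before the gene body and 1 kb beyond it, that lay under H3K27me3 peaks. A gene with 50% or more of its window covered was designated Increased (I) and any other gene Unchanged (U). A pattern gives the designations in the order WT, mdx, mdxTLR4-/-. The authors used the same letters for another measure, a read intensity significantly greater in ChIP than in input. The patterns here are therefore not those of the authors and cannot be set against them. In WT BMDM 29 of 41 genes were Increased, in mdx 27 and in mdxTLR4-/- 25. The shares over all genes were 17.5%, 17.1% and 15.6%. The pattern was III for 25 genes, UUU for 12, IIU for Wnt16 and Sfrp4, and IUU for Wnt5b and Fzd8. Over all genes these patterns were held by 14.7%, 81.1%, 1.25% and 1.13%. No gene had the pattern IUI, UII, UIU or UUI, each held by 0.245% to 0.899% of all genes. At such shares their absence among 41 genes tells nothing about these genes.

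**Figure D2:**
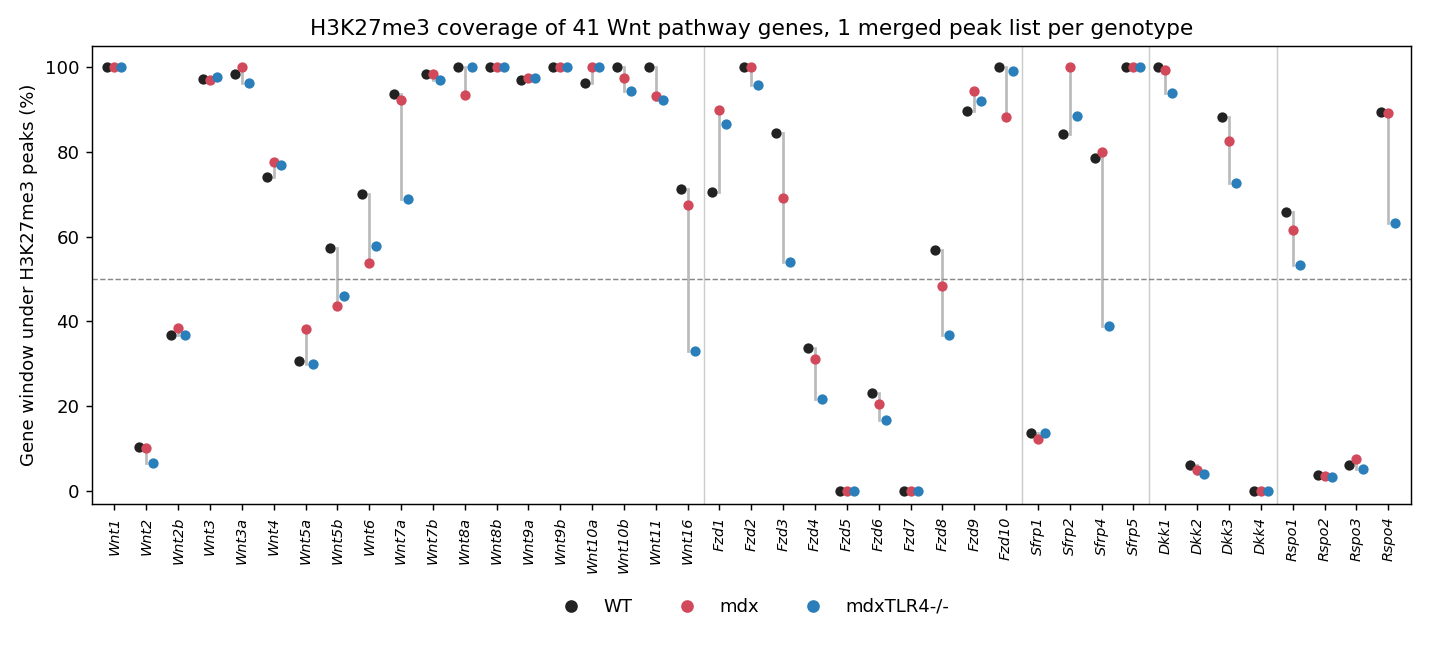
Share of the gene window (%) under H3K27me3 peaks for the 41 genes, in the order Wnt, Fzd, Sfrp, Dkk and Rspo, with 1 point for each genotype and a grey bar from the lowest to the highest of the 3. The dashed line is the 50% used for the designation Increased; most Wnt ligands lie near 100% in all 3 lists, while Wnt16 (71.2%, 67.5% and 33.1%) and Sfrp4 (78.6%, 79.9% and 39.0%) fall below the line in mdxTLR4-/- BMDM.

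Most Wnt ligand genes were Increased, 16 of 19 in the WT list, 15 in the mdx list and 14 in the mdxTLR4-/- list. Wnt1, the founding ligand of the family, Wnt8b and Wnt9b were covered at 100% in WT, mdx and mdxTLR4-/- BMDM. For 8 further ligands, Wnt3, Wnt3a, Wnt7b, Wnt8a, Wnt9a, Wnt10a, Wnt10b and Wnt11, coverage was between 92.3% (Wnt11 in mdxTLR4-/- BMDM) and 100% in all 3 lists. Wnt3a is the ligand commonly used to activate β-catenin, and it was covered at 98.4%, 100% and 96.3%. Wnt10b, known for its part in bone formation, was covered at 100%, 97.4% and 94.4%. Wnt4, which acts in kidney and ovary, was covered at 74.1%, 77.6% and 76.9%.

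The ligands with the lowest coverage carried H3K27me3 too, as a short domain at the start of the gene. Wnt2, which helps to specify the lung, had the lowest coverage of the family, at 10.5%, 10.1% and 6.72%, in peaks of 5, 4.8 and 3.2 kb at the start of a gene of 41.6 kb. Its peak held 156 reads in the WT list, 216 in the mdx list and 129 in the mdxTLR4-/- list. Wnt2b was covered at 36.7%, 38.5% and 36.7%. Wnt5a, the main ligand of β-catenin-independent signalling, was covered at 30.7%, 38.3% and 30.0%. Neither gene moved by 10 points between genotypes.

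This form was shared by genes of all 5 groups. In 9 genes the window was covered below 50% in every list although H3K27me3 was present: Wnt2, Wnt2b, Wnt5a, Fzd4, Fzd6, Sfrp1, Dkk2, Rspo2 and Rspo3. Their windows were 14.8 to 156 kb long with a median of 44.1 kb, and the peaks over their starts were 3.2 to 11 kb long. The 25 genes with the pattern III had windows of 8.29 to 76.0 kb with a median of 26.1 kb, and peaks over the start of 7 to 111 kb. Across the 38 genes with any H3K27me3, Spearman's rho of window length with coverage was -0.480 in WT cells, -0.454 in mdx cells and -0.451 in mdxTLR4-/- cells, as a description across genes of shared lists. Rspo2, of 150 kb, is the clearest case, with a single peak of 6, 5.4 and 5.2 kb over the start and 3.85%, 3.46% and 3.33% of the window covered.

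**Figure D3:**
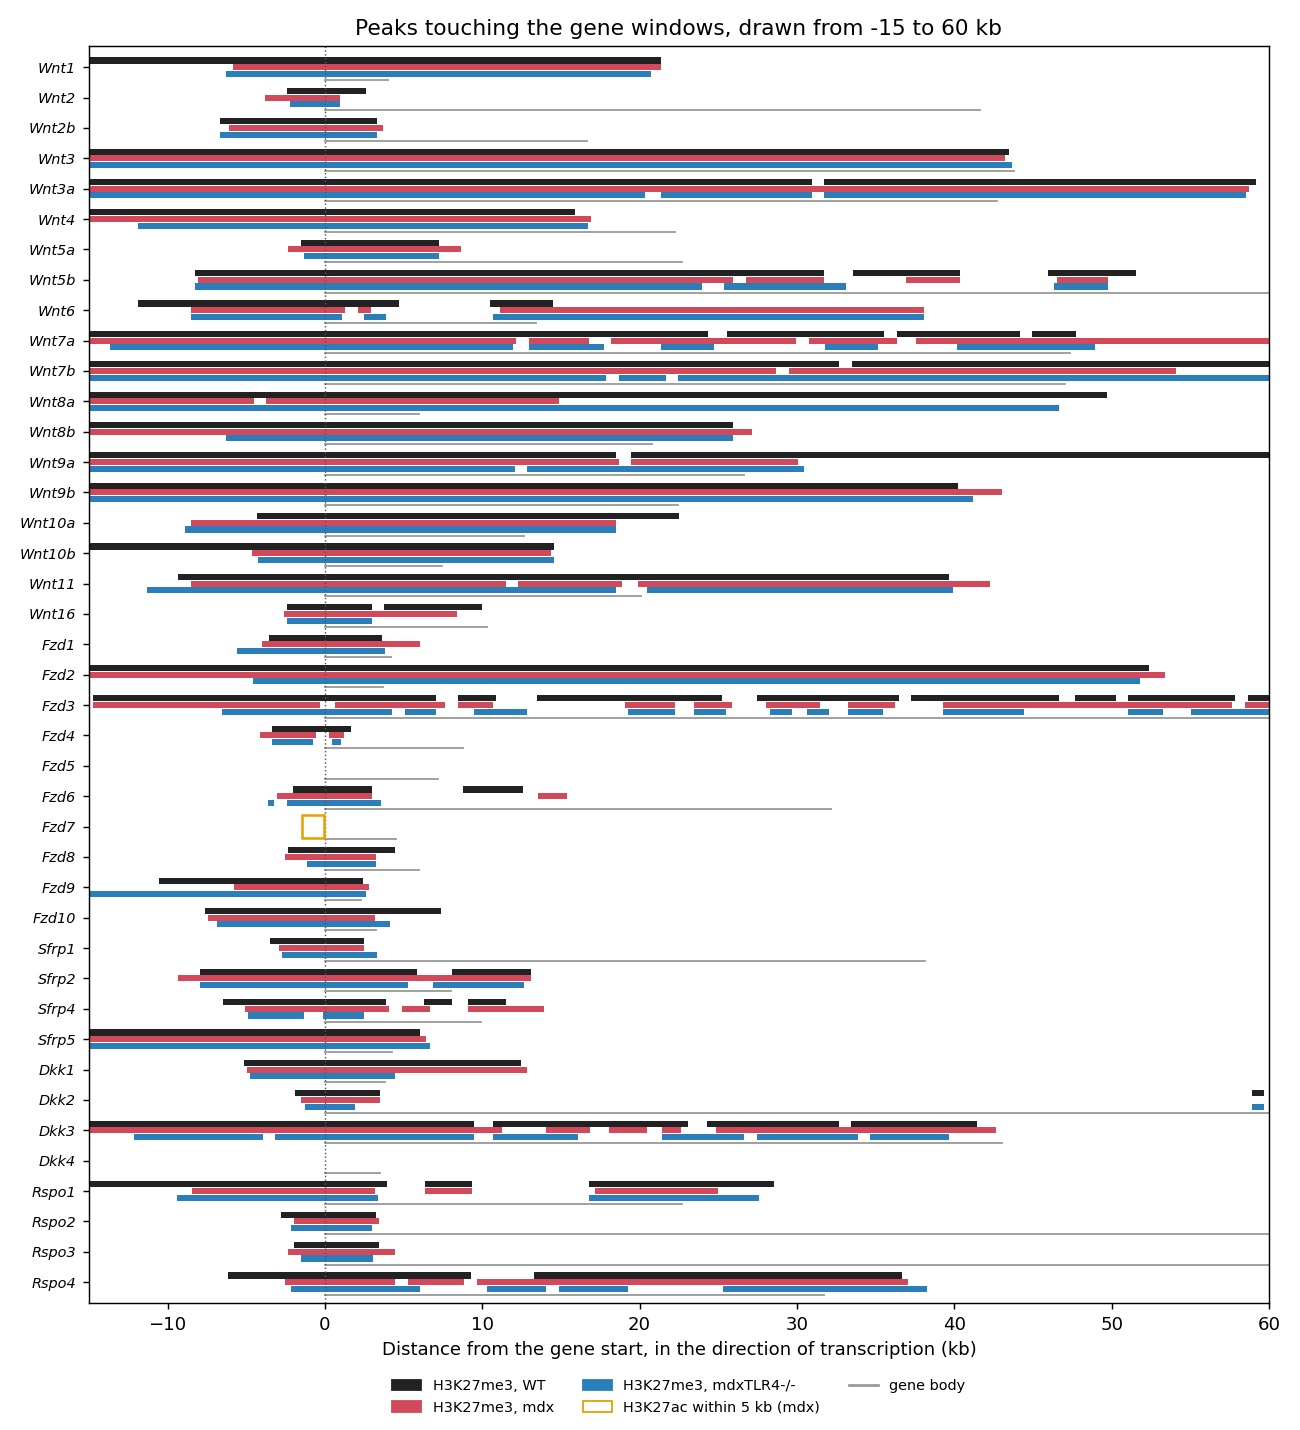
H3K27me3 peaks (filled, 1 lane for each genotype) that touch the windows of the 41 genes, drawn from 15 kb before to 60 kb after the gene start in the direction of transcription, with the gene body as a grey line and the H3K27ac peak of Fzd7 in mdx BMDM as an open box. Long genes such as Rspo2, Rspo3 and Dkk2 have a short peak at the start, ligands such as Wnt3 and Wnt9b lie in domains that leave the drawn range, and the lanes of Fzd5, Fzd7 and Dkk4 hold no H3K27me3.

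Frizzled receptors ranged from complete coverage to none. Fzd2 and Fzd10 were covered at 100% in WT BMDM, and Fzd5 and Fzd7 at 0% in every list. Fzd2 kept 100% in mdx and 95.8% in mdxTLR4-/- BMDM, inside a domain of up to 80.2 kb. Fzd9 was covered at 89.6%, 94.4% and 92.0%, and Fzd6, which helps to orient hair follicles, at 23.1%, 20.4% and 16.8%. The domain of Fzd9 was 13 kb long in WT (533 reads), 8.6 kb in mdx (472 reads) and 50.2 kb in mdxTLR4-/- BMDM (1695 reads). It was the added length upstream, which reached 47.6 kb from the start, that set the mdxTLR4-/- list apart, and this lies mostly outside the window of Fzd9.

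Fzd3 and Fzd4 lost coverage at the start itself in mdx BMDM. Fzd3, known for axon guidance (chr14:65192449-65262463, minus strand), lay under a peak of 21.8 kb with 777 reads at its start in WT BMDM. In mdx BMDM this stretch was split by a gap of 1000 bp (chr14:65261801-65262800) over the start and the 5′ UTR, between peaks of 331 and 771 reads, and in mdxTLR4-/- BMDM the start was covered again, by a peak of 10.8 kb with 412 reads. Fzd4, a receptor for Wnt and for Norrin in the vessels of the retina (chr7:89404355-89413134, plus strand), lay under a peak of 5 kb with 167 reads in WT BMDM. A gap over its start was present in mdx (800 bp) and in mdxTLR4-/- BMDM (1200 bp), between peaks of 143 and 40 reads and of 116 and 29 reads. The gap also touches an exon of Tmem135, whose start lay under the same peak in WT BMDM and under none of these peaks in the other lists. At Fzd3 the peaks of 777, 771 and 412 reads also held the start of Fbxo16. The caller bridges gaps of 600 bp or less between its 200 bp windows, and these gaps are longer than that limit by 1 to 3 windows.

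Fzd5, Fzd7 and Dkk4 had no H3K27me3 in the window in any list. Fzd5 (chr1:64730558-64737751, minus strand) had its nearest H3K27me3 peak 104 kb away in the WT list, 9.65 kb in the mdx list and 9.45 kb in the mdxTLR4-/- list, and its nearest H3K27ac peak 22.8, 120 and 31.2 kb away, so neither mark was called at this gene. Dkk4 (chr8:22624043-22627547, plus strand) had H3K27me3 peaks of 56, 58 and 23 reads 6.44, 5.64 and 6.84 kb from the start, just outside its window. In mdx BMDM an H3K27ac peak of 6 reads (chr8:22618001-22618600) lay 5.44 kb from the start of Dkk4, just outside the 5 kb limit, and it overlapped the end of the H3K27me3 peak of 58 reads. Of all genes without H3K27me3 in the window, 44.6% had H3K27ac within 5 kb in WT cells, 40.0% in mdx cells and 41.9% in mdxTLR4-/- cells, against 0, 1 and 0 of these 3 genes.

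Fzd7 was the gene with H3K27ac. Fzd7 (chr1:59482424-59486955, plus strand) is a receptor known in muscle stem cells, where it binds Wnt7a. In mdx BMDM an H3K27ac peak of 1.4 kb with 12 reads lay at chr1:59481001-59482400. By GENCODE this sequence is intergenic and ends 24 bp before the start of the gene. The RefSeq start lies 277 bp before that of GENCODE, so the peak holds the RefSeq start and the whole promoter stretch printed above. The nearest H3K27ac peak lay 165 kb from the start in WT and 86.2 kb in mdxTLR4-/- BMDM. The count of 12 reads is usual for this list, in which the median gene with H3K27ac had 14 reads within 5 kb, with quartiles of 9 and 24. The mdx list rests on 2 ChIP libraries and the mdxTLR4-/- list on 1. No read count is given for the other genotypes at this place, so the size of the difference cannot be stated.

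Among the antagonists, coverage ran from complete to none. Sfrp5 was covered at 100% in all 3 lists, and Sfrp1 at 13.6%, 12.2% and 13.6% in a gene of 38.1 kb. Dkk1, the classic secreted inhibitor of β-catenin signalling, was covered at 100%, 99.3% and 93.8%. The peak over Dkk1 held 575 reads in the WT list, 756 in the mdx list and 312 in the mdxTLR4-/- list. Dkk3 was covered at 88.2%, 82.5% and 72.7%, and Dkk2 at 6.14%, 4.95% and 3.96%, again as a short domain at the start of a long gene.

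Among the R-spondins, Rspo4, known for its part in nail growth, had the highest coverage in WT BMDM (89.4%) and Rspo2 the lowest (3.85%). Rspo3 was covered at 6.04%, 7.60% and 5.14%. Rspo1, which acts in ovary development, was covered at 65.8%, 61.6% and 53.3%, and so stayed Increased in each list while its coverage was lowest in mdxTLR4-/- BMDM.

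The comparison of WT with mdx BMDM asks what differs in macrophages from dystrophic mice. Coverage was lower by 10 percentage points or more in 4 of 41 genes, Wnt5b, Wnt6, Fzd3 and Fzd10, and higher by as much in 2, Fzd1 and Sfrp2. Over all genes, 5.79% were lower and 5.04% higher by this measure. This balance depends on the number of peaks in the lists: with lists cut to equal numbers, 9.53% of all genes were lower and 2.36% higher, against 7 and 2 of the 41. Only covered genes can lose coverage, and of the genes Increased in WT BMDM 20.0% were lower, against 4 of 29 here. The median difference over the 41 genes was -0.196 points.

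Wnt6 (chr1:74771892-74785322, plus strand) fell from 70.2% to 53.7%. Its peak at the start was 16.6 kb long with 750 reads in WT and 9.8 kb with 747 reads in mdx BMDM, counts that are not scaled for depth. Wnt5b (chr6:119432531-119544347, minus strand), of 112 kb, fell from 57.3% to 43.8%. The stretch under its 40 kb start peak of WT BMDM was covered in mdx BMDM by peaks of 34 and 5 kb across a short gap. Of the 16.4 kb lost, 0 kb lay within 2.5 kb of the start, and most lay in distal peaks, which were 4, 14.4, 5.6 and 6.8 kb long in WT and 9, 3.2 and 3.4 kb in mdx BMDM. Fzd3 fell from 84.5% to 69.0% and Fzd10 from 100% to 88.2%. Fzd1 rose from 70.6% to 89.8%, as its peak grew from 7.2 to 10 kb, and Sfrp2 rose from 84.3% to 100%, as 2 peaks of 711 and 148 reads became 1 of 1211.

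The comparison of mdx with mdxTLR4-/- BMDM asks what the loss of TLR4 changes in mdx macrophages. Coverage was lower by 10 points or more in 7 of 41 genes and higher in 1, Fzd10, which returned to 99.0%. Over all genes, 8.03% were lower and 2.60% higher, and of the genes Increased in mdx BMDM 24.5% were lower, against 6 of 27 here. This balance too depends on the number of peaks in the lists. With lists cut to equal numbers, 5.64% of all genes were lower and 3.06% higher, against 6 and 1 of the 41, and Fzd3 was no longer among the lower. The median difference over the 41 genes was -1.77 points.

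The 4 largest falls of this comparison were in Sfrp4, Wnt16, Rspo4 and Wnt7a. Sfrp4 (chr13:19623104-19632994, plus strand), a Wnt antagonist known in bone, fell from 79.9% to 39.0%, as 3 peaks of 393, 45 and 114 reads in mdx BMDM gave way to 2 peaks of 128 and 101 reads around the start. The peaks of 393 and 128 reads also held the start of another gene, Epdr1. Wnt16 (chr6:22288227-22298522, plus strand), a ligand made by bone-forming cells, fell from 67.5% to 33.1%. Its peak at the start had the same position in WT (304 reads) and mdxTLR4-/- BMDM (257 reads), and what differed was a stretch of the gene body that held a peak of 133 reads in WT BMDM, was joined to the start peak in mdx BMDM (485 reads) and was not called in mdxTLR4-/- BMDM.

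Rspo4 (chr2:151842927-151874668, plus strand) fell from 89.2% to 63.2%, where a domain of 27.4 kb with 765 reads in the distal part of the gene became 3 peaks of 80, 81 and 326 reads. Wnt7a (chr6:91363981-91411363, minus strand), which expands muscle stem cells, fell from 92.1% to 68.9%. The 13.4 kb lost lay away from the start, with 0 kb within 2.5 kb of it. The peaks there were 24.6, 5.6, 11.8 and 3.8 kb long in mdx and 8.8, 3.4, 3.4 and 4.8 kb in mdxTLR4-/- BMDM, while the start peak was 28.6 kb with 1548 reads in mdx and 25.6 kb with 1145 reads in mdxTLR4-/- BMDM. The other falls were in Fzd3 (69.0% to 54.0%), Sfrp2 (100% to 88.6%) and Fzd8 (48.4% to 36.7%).

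Between WT and mdxTLR4-/- BMDM, 11 of 41 genes were lower by 10 points or more, namely Wnt5b, Wnt6, Wnt7a, Wnt16, Fzd3, Fzd4, Fzd8, Sfrp4, Dkk3, Rspo1 and Rspo4, and 1 was higher, Fzd1. Over all genes 8.82% were lower and 2.67% higher, and of the genes Increased in WT BMDM 29.8% were lower, against 10 of 29 here. In each comparison the share of Increased genes that were lower was near that over all Increased genes. The 3 comparisons share their lists and are not independent of each other. Fzd8, on chromosome 18, went from 56.8% to 48.4% and 36.7%, as its peak went from 6.8 to 5.8 and 4.4 kb, while the reads in it went from 277 to 333 and 242.

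Summed over the genes lower by 10 points or more, most of the coverage that was lost lay away from the start. These genes were chosen by a fall over the whole window, so the sum cannot show whether starts were spared. Long genes with only a short start domain have too little coverage to enter this sum. Rspo2, Rspo3 and Dkk2 were covered at 3.85%, 6.04% and 6.14% in WT BMDM. In the 5 kb around the start, coverage was 100%, 89.5% and 93.5% for Rspo2 in WT, mdx and mdxTLR4-/- BMDM. It was 88.7%, 96.7% and 80.7% for Rspo3 and 87.8%, 79.8% and 64% for Dkk2. In the 11 genes lower in mdxTLR4-/- than in WT BMDM, 102 kb of covered sequence was lost, of which 5.97 kb (5.87%) lay within 2.5 kb of a gene start, whereas 16.5% of the sequence covered in WT BMDM lay there. In 6 of the 11 genes 0 kb was lost within 2.5 kb of the start. The sum is carried by long genes such as Fzd3, which lost 26.4 kb, and 3 short genes differed from it: the share near the start was 100% of 1.8 kb for Fzd4, 58% of 2.4 kb for Wnt6 and 50% of 2.4 kb for Fzd8. From WT to mdx the share was 4.86% of 37.0 kb lost in 4 genes, and from mdx to mdxTLR4-/- 5.43% of 55.1 kb lost in 7 genes, with 95.6% of 1.4 kb for Fzd8. Peaks over a start were also denser than the other peaks of these windows. In WT BMDM the start peaks had a median of 42.3 reads per kb (35 peaks) and the others 22.2 (32 peaks), in mdx 55.4 (34 peaks) and 28.9 (37 peaks), and in mdxTLR4-/- BMDM 45.6 (35 peaks) and 24.0 (42 peaks). Over all genes the start peaks had 36.0, 43.1 and 36.1 reads per kb and the others 24.5, 28.4 and 23.7.

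A total of 8 Wnt genes formed 4 pairs with starts within 100 kb, and 3 of these pairs lay under a shared domain in WT BMDM. Such genes are not independent of each other, since the same peak and reads count for both. Wnt9b and Wnt3 (chromosome 11), with starts 24.3 kb apart, lay in 1 peak of 108 kb in the WT list, 111 kb in the mdx list and 109 kb in the mdxTLR4-/- list. It held 6748, 7666 and 6641 reads. Wnt3a and Wnt9a (chromosome 11), with starts 16.2 kb apart, shared 1 peak of 65.6 kb in WT cells, 93.6 kb in mdx cells and 48.6 kb in mdxTLR4-/- cells, with 4407, 6832 and 3359 reads, and further peaks across short gaps covered most of what it left of the genes.

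Wnt10b and Wnt1 (chromosome 15) lie back to back on opposite strands, with starts 11.7 kb apart. In WT BMDM 1 peak of 47.6 kb with 3205 reads (chr15:98763601-98811200) held both. In mdx and mdxTLR4-/- BMDM the domain was split by an intergenic gap of 1200 bp, at chr15:98782801-98784000 in mdx and chr15:98782401-98783600 in mdxTLR4-/-. The Wnt10b side held 1091 reads in mdx and 923 in mdxTLR4-/- BMDM and the Wnt1 side 2684 and 2236, or 57.4 and 49.1 reads per kb against 98.7 and 82.8. The Wnt1 side was thus the denser part in both lists in which the parts were counted apart.

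Wnt6 and Wnt10a (chromosome 1), with starts 19.6 kb apart and on the same strand, lay under separate peaks in every list. The longest gap between them was 5800 bp in the WT list, 8200 bp in the mdx list and 6800 bp in the mdxTLR4-/- list, inside Wnt6 and an antisense transcript, Gm29539. In WT BMDM a peak of 116 reads over the end of Wnt6 stood apart from that of Wnt10a, and in the other lists it was part of it.

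**Figure D4:**
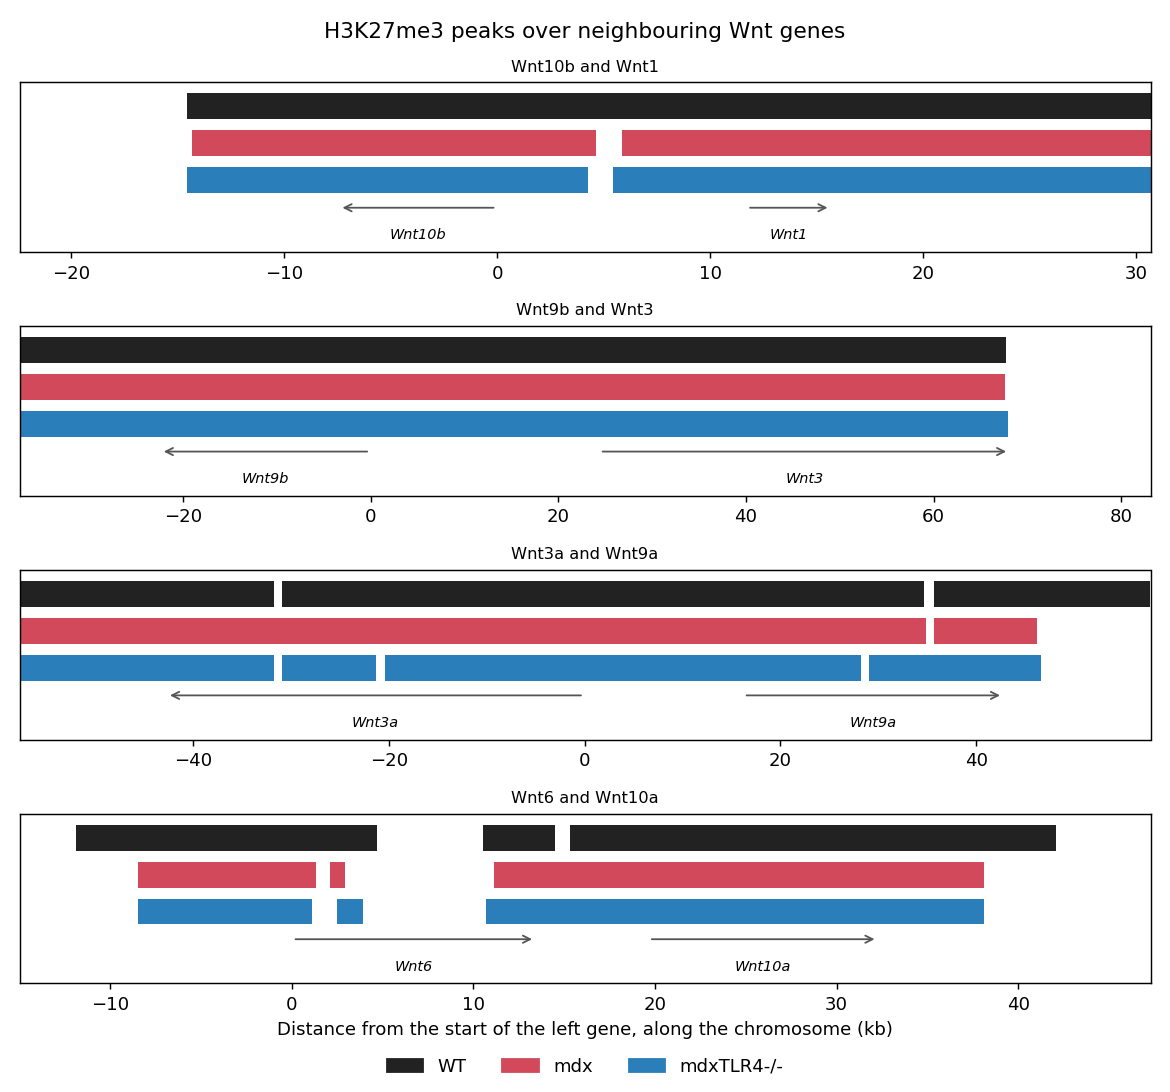
H3K27me3 peaks that touch the windows of 4 pairs of neighbouring Wnt genes, against the distance from the start of the left gene along the chromosome (kb), with 1 row for each genotype and arrows for the genes in the direction of transcription. Wnt9b and Wnt3 lie under 1 peak in each row, the peak over Wnt10b and Wnt1 is split by a 1200 bp gap in mdx and mdxTLR4-/- BMDM, and the gap between Wnt6 and Wnt10a is widest in mdx BMDM (8200 bp).

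Read density, the ChIP reads per kb of the peaks that touch a window, was higher at these genes than at most covered genes, and its ratios between lists lay near those of all genes. The median over the 38 genes with H3K27me3 was 42.1 reads per kb in WT cells, 54.1 in mdx cells and 44.8 in mdxTLR4-/- cells. Over all genes with a peak it was 31.1, 35.8 and 30.0, with upper quartiles of 41.0, 47.6 and 40.3. Densities are not scaled for depth, so a ratio between lists has meaning only beside that of all genes. The median ratio of mdx to WT was 1.23 for these genes and 1.20 for all genes, that of mdxTLR4-/- to mdx 0.854 and 0.812, and that of mdxTLR4-/- to WT 1.03 and 0.975.

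The genes with the highest densities were Wnt10a in WT (74.9 reads per kb) and Wnt1 in mdx (98.7) and mdxTLR4-/- BMDM (82.8). The lowest were Fzd3 in WT (24.6) and mdxTLR4-/- (24.9) and Rspo4 in mdx BMDM (33.1). The ratio of mdx to WT ran from 0.853 (0.795 to 0.914, exact 95% Clopper-Pearson interval of the read counts) for Wnt10b to 2.05 (1.91 to 2.22) for Wnt6. The WT count of Wnt10b includes the Wnt1 side of the shared peak, and the mdx count of Wnt6 includes the peak of Wnt10a. The start peak of Wnt6 alone had 45.2 reads per kb in WT and 76.2 in mdx BMDM. From mdx to mdxTLR4-/- the lowest ratio was that of Fzd9, at 0.615 (0.555 to 0.683), where the peak had grown to 50.2 kb. Intervals cover counting error only.

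**Figure D5:**
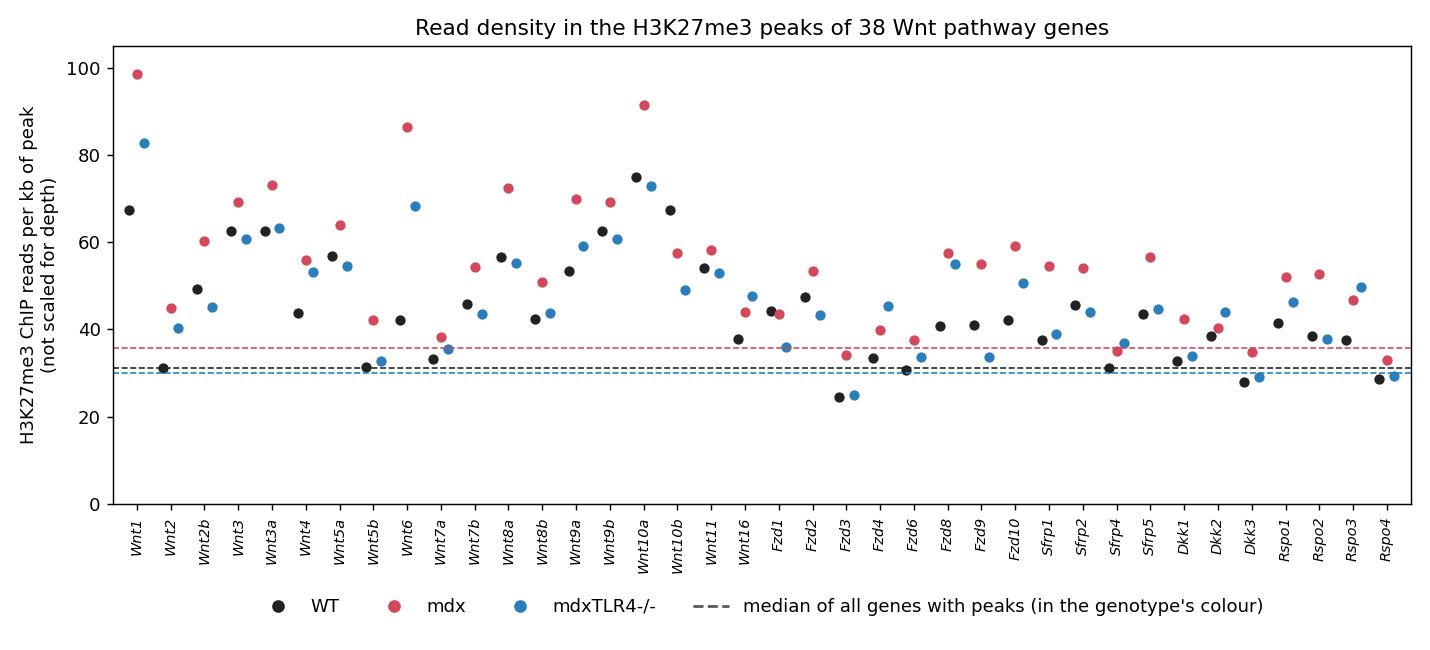
ChIP reads per kb of H3K27me3 peak, not scaled for depth, for the 38 genes with a peak, with 1 point for each genotype and dashed lines at the median over all genes with a peak in the same list (31.1, 35.8 and 30.0). The mdx point lies above the WT point for 36 of the 38 genes, and the mdxTLR4-/- point above the mdx point for 5. Most genes of the genome went the same way. Over all genes with peaks in both lists, the quartiles of the ratio were 1.11 and 1.30 for mdx to WT. For mdxTLR4-/- to mdx they were 0.744 and 0.884. Of the 38 genes, 22 and 25 had ratios above the median of all genes in these 2 comparisons.

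The other genes of the pathway, 50 genes in 6 lists, carried the marks in another mixture. Of these 50, the start lay under H3K27me3 in 24 in the WT list, 25 in the mdx list and 23 in the mdxTLR4-/- list, against 24.5%, 24.7% and 23.6% of all genes. In the same order 12, 9 and 11 had H3K27ac within 5 kb, 8 of them in all 3 lists, against 32.9%, 28.3% and 30.4% of all genes. Among 9 co-receptors and Wnt-binding receptors, 7 starts were under H3K27me3 in each list. The exceptions were Lrp5 and Lrp6, the co-receptors of β-catenin signalling. Lrp5 had H3K27ac peaks of 31, 17 and 28 reads, and Lrp6 of 16 reads in WT and 6 in mdxTLR4-/- BMDM with none called in mdx BMDM.

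The cytoplasmic genes of the pathway were mostly free of H3K27me3, as were most genes of the genome. Of 11 cytoplasmic genes 0 were Increased in any list, against 17.5%, 17.1% and 15.6% of all genes. H3K27ac was found at 6, 4 and 4, against 32.9%, 28.3% and 30.4% of all genes. Among them were the kinases Gsk3b (48, 42 and 20 reads) and Csnk1a1 (43, 28 and 27 reads). Axin2, a feedback inhibitor and common readout of β-catenin activity, was the one with its start under H3K27me3, covered at 45.2%, 39.5% and 35.1%. Wls, which carries Wnt proteins to the cell surface, had H3K27ac peaks of 27, 9 and 12 reads and 0% H3K27me3 coverage.

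Of 12 nuclear genes 4, 5 and 4 were Increased, with the transcription factors Tcf7 (77.0%, 83.5% and 63.9%) and Tcf7l1 (61.0%, 68.6% and 55.6%) in every list, while Tcf7l2 had H3K27ac peaks of 24, 9 and 12 reads. Of 12 other secreted or membrane antagonists 5 were Increased in each list, among them Notum, an enzyme that removes the lipid from Wnt (90.9%, 98.4% and 80.5%), and Sost, a bone-derived inhibitor of Lrp (82.8%, 77.1% and 77.1%). The shares Increased over all genes were 17.5%, 17.1% and 15.6%. The target gene Sp5 was covered at 100% in all 3 lists. Coverage in these 50 genes was lower by 10 points or more in 1 gene and higher in 1 from WT to mdx, against 5.79% and 5.04% of all genes. From mdx to mdxTLR4-/- BMDM it was lower in 8 and higher in 0, against 8.03% and 2.60% of all genes. Of the 50 genes, 15 were Increased in mdx BMDM, and among the 8 only Sostdc1, at 39.3%, was not. Of all genes Increased in mdx BMDM, 24.5% were lower.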

How the data were processed

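ChIP-seq of native chromatin cut with micrococcal nuclease was used for both marks. Per the submitters' processing notes the tools were CASAVA 1.8, cutadapt 1.15, Bowtie2 2.3.4 and SICER 2.0. The authors mapped reads to mm10, merged replicates and called peaks (windows of 200 bp joined across 600 bp, FDR below 0.01). The deposited value of a peak is its count of ChIP reads, not scaled for depth or length, with no input subtracted. The 6 peak lists, 1 for each mark and genotype, were read with starts counted from 1. Removal of duplicate reads and excluded regions are not given in the sources used here.

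Genes came from GENCODE vM21 and promoter sequences from RefSeq (GRCm38.p6). Coverage of gene windows, designations, read densities and exact 95% Clopper-Pearson intervals of count ratios were computed with Python 3.11.15, numpy 2.4.6 and scipy 1.17.1, and the code was tested on simulated lists. With 1 merged list for each genotype no test between genotypes was run. Each gene was accounted for. Named in full were genes with a change of designation, a change of 10 points, H3K27ac or no H3K27me3, and the highest and lowest of each group. The genes, lists and measures were chosen with earlier results of these data known, and the promoters of Fzd5 and Wnt1 after their values were seen. Alternatives were stricter peaks, equal numbers of peaks, other limits, a window at the start, all transcript starts and 3 scalings of density.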

Additional observations from a re-analysis of the deposited data

How the results depend on the processing

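The counts of Increased genes stayed within 1.5 times of those reported under every alternative run, while the counts of changed genes are small and moved. With a limit of 20 points, coverage fell in 0 genes and rose in 0 from WT to mdx, fell in 4 and rose in 0 from mdx to mdxTLR4-/-, and fell in 6 and rose in 0 from WT to mdxTLR4-/- BMDM. Over all genes the shares that fell and rose at this limit were 2.05% and 1.85%, 2.87% and 0.798%, and 3.47% and 0.966% in the same order. With lists cut to equal numbers of peaks, 7 genes fell from WT to mdx, against 9.53% of all genes. With peaks of 1.5 times the 1st percentile of density, 4 rose from WT to mdx and 5 fell from WT to mdxTLR4-/-, against 4.44% and 6.05% of all genes. With these peaks 3 fell from WT to mdx, against 4.76% of all genes, namely Wnt6, Fzd10 and Sfrp4, without Wnt5b and Fzd3. From mdx to mdxTLR4-/- 6 fell, against 5.65%, namely Wnt16, Fzd8, Sfrp2, Sfrp4, Dkk3 and Rspo4, without Wnt7a and Fzd3. Within 2.5 kb of the start, 1 rose from WT to mdx, and 6 fell and 0 rose from WT to mdxTLR4-/- BMDM, against 6.94%, 9.40% and 4.86% of all genes. There 5 fell from WT to mdx, against 7.41% of all genes, namely Wnt2, Wnt6, Fzd3, Fzd4 and Rspo2. From mdx to mdxTLR4-/- 7 fell, against 9.41%, namely Wnt5a, Wnt6, Fzd4, Fzd8, Sfrp4, Dkk2 and Rspo3. In both comparisons most of these genes were not among those lower over the whole window. With all protein-coding transcript starts, 1 gene had H3K27ac in WT BMDM, Wnt5b, through an intronic peak of 6 reads, against 35.1% of all genes.

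The median density ratio depended on the scaling. Per 1000000 reads in peaks, relative to the 1st percentile and relative to all genes, it was 1.00, 1.05 and 1.02 for mdx against WT, 1.18, 1.09 and 1.05 for mdxTLR4-/- against mdx, where the direction turned, and 1.17, 1.13 and 1.06 for mdxTLR4-/- against WT. No paired analysis was possible because the authors merged the replicates before calling peaks, and for the same reason no replicate could be left out. Peaks under the caller's threshold are not listed, so gaps of 800 to 1200 bp and H3K27ac peaks of a few reads rest on little data.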
